A study of Hordeum vulgare with 6 samples.

Results

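Cytokinins are plant hormones that promote cell division. Enzymes of the LOG family (named after rice *LONELY GUY*) release the active free base from its nucleotide form, histidine kinases with a CHASE domain bind the hormone at the membrane and pass the signal on through phosphate transfer, and cytokinin oxidases (CKX) break the hormone down irreversibly by removing its side chain. In rice, a LOG family enzyme promotes the growth of the awn, the needle-like extension of the lemma, which is the outer hull of the grass flower. Transcript levels were followed here for 4 such barley genes of the 26933 genes listed in the table: *LOG6* (HORVU.MOREX.r3.4HG0408000) and *LOG7* (HORVU.MOREX.r3.4HG0335590) for activation, *HK1* (HORVU.MOREX.r3.6HG0616300) for perception and *CKX5* (HORVU.MOREX.r3.3HG0244570) for breakdown. The names are those of the study, whose annotation describes both LOG genes as lysine decarboxylase family proteins, the name under which this enzyme family is often annotated, *HK1* as a histidine kinase containing a CHASE domain, and *CKX5* as cytokinin oxidase 5. By their identifiers *CKX5* lies on chromosome 3H and *HK1* on 6H. The LOG genes both lie on 4H, with 2417 of the 3146 identifiers listed for that chromosome between them.

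RNA was sequenced from 3 WT and 3 *mads1* pools of the barley cultivar Golden Promise, grown under normal conditions and collected at W7.5 on the Waddington scale of inflorescence development. The study grew barley in a greenhouse or in a field, and its methods do not say which of these gave the RNA. The *mads1* plants carry CRISPR-Cas9 knockout alleles of *HvMADS1*, an E-class floral MADS-box gene. The study describes 3 such lines, and the sources used here do not say which of them gave the RNA. The methods describe the tissue as lemma and awn from the centre of the spike, and the labels as spikelet. Each pool holds tissue of several plants, so a replicate averages over individuals.

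These genes were chosen because the study found them bound by HvMADS1 and, in these same libraries, changed in *mads1*. Their differences between the genotypes are therefore given as a description, and no p is given for them. The binding was measured in other material, by the DNA-binding assay CUT&Tag on lemma and awn of a transgenic *HvMADS1-eGFP* line. Values are FPKM, the fragments of a gene scaled to its length and to the size of the library, so levels of different genes can be compared per length. Fold changes are differences of means of log2(FPKM + 1), *mads1* against WT, which understates the change of genes with low FPKM.

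All libraries expressed the awn regulator *SHI*, at 57.5 to 63.4 FPKM in WT and 14.3 to 18.9 FPKM in *mads1*. *DL*, a gene of lemma, awn and carpel, ranged from 80.6 to 96.5 FPKM in WT and from 49.8 to 65.7 FPKM in *mads1*. *MADS2*, a B-class gene of lodicules and stamens, was lower in level than either but present in every library, at 10.8 to 13.3 FPKM in WT and 6.45 to 7.44 FPKM in *mads1*. The E-class gene *MADS5*, used in several floral organs, was at 16.6 to 24.3 FPKM in WT and 9.07 to 10.7 FPKM in *mads1*. For each of these 4 marker genes the *mads1* values lay below the WT values, opposite to the cytokinin genes. All 4 are themselves on the study's list of bound and changed genes, so their lower values do not measure organ composition, whose part in the values below was not tested. In pooled tissue, more cells of an expressing type and more RNA per cell cannot be told apart. The FPKM totals of the libraries were 939663 to 966119 in *mads1* and 993575 to 994495 in WT, and the number of reads behind them is unknown. Every *mads1* total lay below every WT total, so this difference in scale cannot be separated from genotype. Rescaling to the same total raised the log2 fold change of each cytokinin gene, that of *LOG7* from 0.66 to 0.72. Totals like these would also arise if each library had been scaled to a fixed sum (TPM) and some genes were not in the table. Which of these scales the values have cannot be told from the table.

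Both activating genes were higher in *mads1*. WT replicates 1, 2 and 3 held 5.51, 4.25 and 4.35 FPKM of *LOG6*, and the *mads1* replicates held 11.33, 12.17 and 10.47 FPKM. The lowest *mads1* value was 1.90 times the highest WT value. Its mean was 4.70 ± 0.700 FPKM in WT and 11.3 ± 0.850 FPKM in *mads1* (SD, n = 3 each). The log2 fold change of *LOG6* was 1.12, with a standard error of 0.12.

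*LOG7* was the most abundant of the 4 genes in every library. It reached 38.70, 33.77 and 32.20 FPKM in WT replicates 1, 2 and 3, and 59.59, 48.15 and 59.42 FPKM in the *mads1* replicates. The genotypes did not overlap, but they came closer to each other than for the other 3 genes, with the lowest *mads1* library 1.24 times the highest WT library. The mean was 34.9 ± 3.39 FPKM in WT and 55.7 ± 6.56 FPKM in *mads1* (SD, n = 3 each). On the FPKM scale this was the largest difference among the 4 genes, 20.8 FPKM, and on the log2 scale the smallest, 0.66 (standard error 0.11). It lay 0.07 above the 1.5-fold limit of 0.58 that the study set. Among the 541 tested genes that the study lists as bound and changed, the highest log2 fold change under that limit, also 0.58 after rounding, was that of a leucine-rich receptor-like protein kinase gene (HORVU.MOREX.r3.3HG0285210).

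For *HK1*, the receptor gene, the WT replicates gave 8.19, 9.24 and 7.85 FPKM, whereas the *mads1* replicates gave 19.40, 18.07 and 22.12 FPKM. Every *mads1* library was at least 1.96 times as high as any WT library. The mean was 8.43 ± 0.725 FPKM in WT and 19.9 ± 2.06 FPKM in *mads1* (SD, n = 3 each), and the log2 fold change was 1.14 (standard error 0.11).

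*CKX5*, the gene for breakdown, was the least abundant of the 4. The table lists it with 0.33, 0.15 and 0.24 FPKM for WT replicates 1, 2 and 3, against 2.15, 2.75 and 1.04 FPKM for those of *mads1*. No WT library reached the 1 FPKM asked of at least 3 libraries before testing, so the gene entered the test through its 3 *mads1* values alone. The ratio of the means was 8.25, the largest among the 4 genes. Single libraries of the genotypes differed by 3.15 times at the least and 18.3 times at the most. The log2 fold change was 1.22 (standard error 0.24), but it rose to 1.68 with 0.5 and to 2.55 with 0.1 added to FPKM in place of 1. Over the whole table, 164 genes (0.609%) were likewise under 0.5 FPKM in each WT library and at 1 FPKM or more in each *mads1* library.

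**Figure D1:**
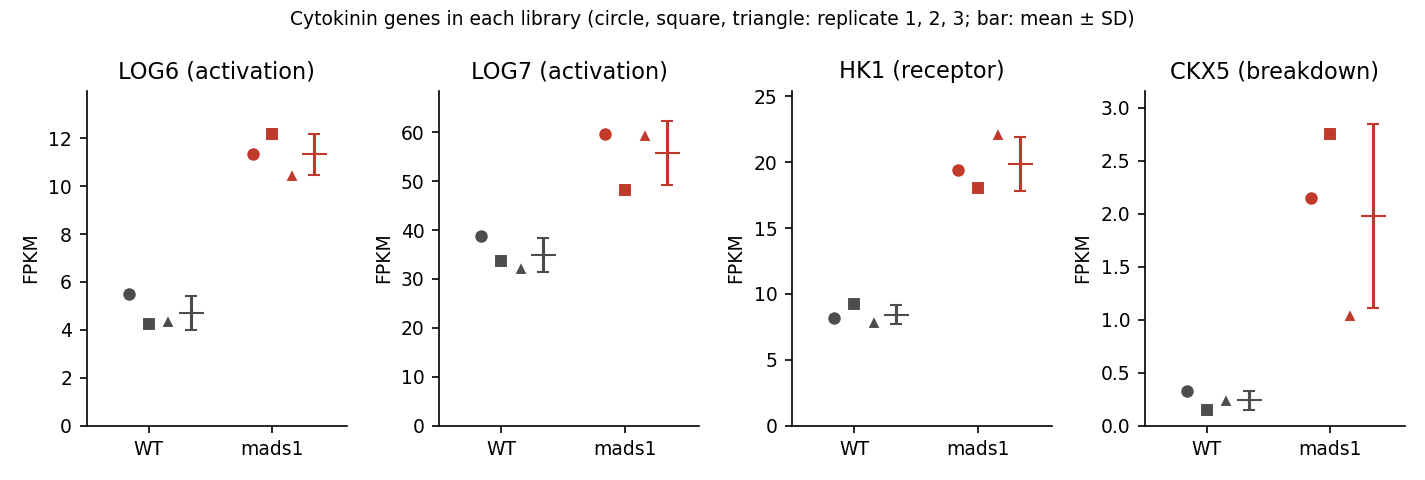
FPKM of *LOG6*, *LOG7*, *HK1* and *CKX5* in each of the 6 libraries, with symbols for replicates 1, 2 and 3 and bars for the mean ± SD of each genotype; each panel has its own axis from 0. In all 4 panels the *mads1* libraries lie above the WT libraries, closest for *LOG7* and with the widest relative spread for *CKX5*.

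Restating how they were selected, all 4 genes met the call used here (adjusted p below 0.05 from limma with Benjamini-Hochberg adjustment, and at least 1.5-fold), and of all 17996 genes tested 6.6% were called higher in *mads1*. Their 3 *mads1* values lay above the 3 WT values, which held for 29.4% of the genes tested. The genes were selected on this contrast, so nothing is read from either count. By size of the log2 fold change, 376 of the tested genes rose more than *CKX5*, 405 more than *HK1*, 427 more than *LOG6* and 1023 more than *LOG7*. The 541 listed and tested genes held 450 that were called lower and 64 that were called higher in *mads1*. Among the latter, *CKX5* stood at place 17, *HK1* at 23, *LOG6* at 24 and *LOG7* at 51. These places rank the genes by the contrast on which they were selected, so nothing is read from the places. *CKX5* entered the test through its *mads1* values alone. The places hold for 1 added to FPKM. With 0.1 added, 228 tested genes rose more than *CKX5*, 551 more than *HK1*, 528 more than *LOG6* and 1304 more than *LOG7*, and *CKX5* stood at place 11 of 72 listed genes called higher.

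**Figure D2:**
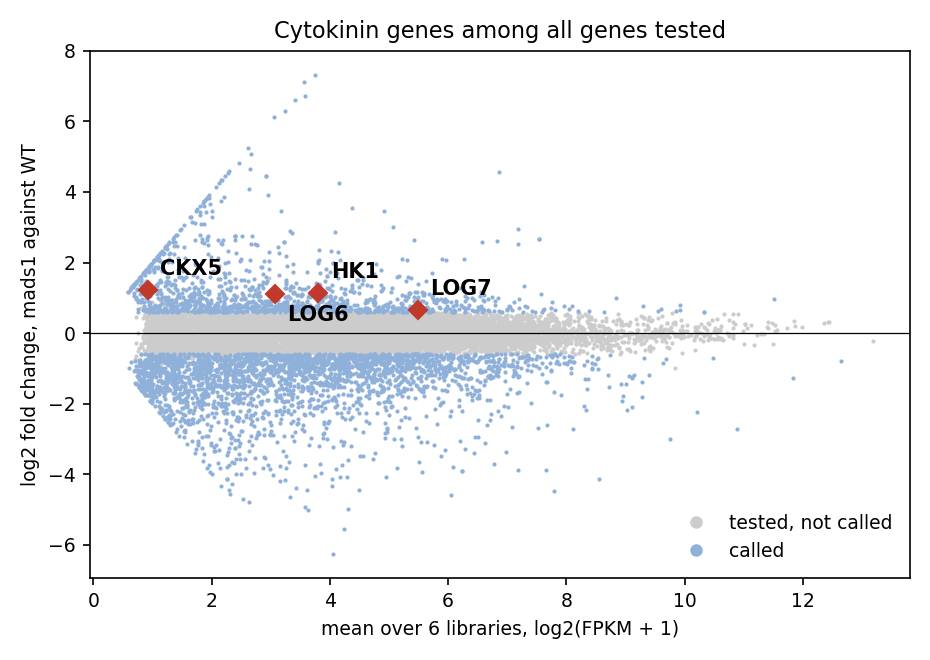
Log2 fold change (*mads1* against WT) plotted against the mean of log2(FPKM + 1) over 6 libraries for the 17996 genes tested, with called genes in blue and the 4 cytokinin genes as red diamonds. *CKX5* sits at the low end of expression and *LOG7* at 0.66 on the log2 scale, just past the 1.5-fold limit.

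The order of the levels was the same in all 6 libraries, with *LOG7* first, then *HK1*, *LOG6* and *CKX5*. In each genotype, the ranges of neighbours in this order did not overlap. *LOG7* stood above 77.6% to 81.3% of the listed genes in the WT libraries and above 85.1% to 88.1% in the *mads1* libraries. *HK1* moved from above 52.7% to 55.1% of genes in WT to above 67.2% to 70.2% in *mads1*, and *LOG6* from 46.2% to 48.7% to 57.2% to 60.4%. *CKX5* stayed in the lower part of the table, above 21.5% to 26.4% of genes in WT and 35.4% to 43.5% in *mads1*.

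The proportions between the genes differed between the genotypes, and a ratio within a library does not depend on how the library was scaled. *LOG7* was 7.02, 7.95 and 7.40 times as abundant as *LOG6* in the WT libraries and 5.26, 3.96 and 5.68 times in the *mads1* libraries. *LOG6* thus made up 11.8 ± 0.644% of the summed FPKM of the pair in WT and 17.0 ± 2.76% in *mads1* (SD, n = 3 each), while the sum went from 39.6 ± 4.07 to 67.0 ± 5.85 FPKM. The ratio of *LOG7* to the receptor gene *HK1* was 3.65 to 4.73 in WT and 2.66 to 3.07 in *mads1*, again without overlap. In contrast, the ratio of *HK1* to *LOG6* was 1.82 ± 0.344 in WT and 1.77 ± 0.318 in *mads1* (SD, n = 3 each), and its ranges overlapped. *LOG7* was 117 to 225 times as abundant as *CKX5* in WT and 17.5 to 57.1 times in *mads1*. The ratio of *LOG6* to *CKX5* was 16.7 to 28.3 in WT and 4.43 to 10.1 in *mads1*. In WT, *CKX5* was at 0.15 to 0.33 FPKM, under the 1 FPKM filter, so the size of its ratios there is uncertain. These ratios follow from the values on which the genes were selected and were not tested.

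**Figure D3:**
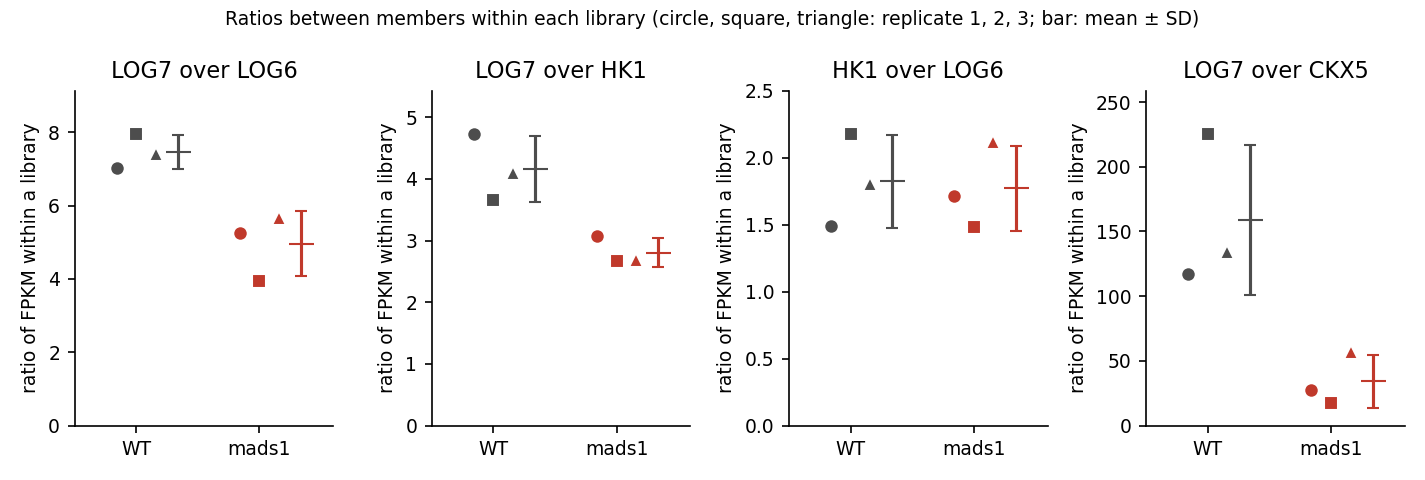
Ratios of FPKM between members within each library (symbols for replicates 1, 2 and 3, bars for the mean ± SD). The *mads1* libraries lie below the WT libraries for *LOG7* over *LOG6*, *LOG7* over *HK1* and *LOG7* over *CKX5*, and the genotypes overlap for *HK1* over *LOG6*.

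The spread between replicates differed among the genes. The coefficient of variation was 9.72% in WT and 11.8% in *mads1* for *LOG7*, 8.60% and 10.4% for *HK1*, and 14.9% and 7.51% for *LOG6*. It was 37.5% and 43.8% for *CKX5*. The genes did not share one order of the *mads1* pools. *LOG6* and *CKX5* were highest in replicate 2 and lowest in replicate 3, whereas *LOG7* and *HK1* were lowest in replicate 2. In WT, *LOG6*, *LOG7* and *CKX5* were highest in replicate 1 and *HK1* in replicate 2. Without *mads1* replicate 3 the log2 fold change of *CKX5* was 1.47, and without *mads1* replicate 2 it was 1.03. That of *LOG7* stayed at 0.60 to 0.76 when any 1 library was left out.

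**Figure D4:**
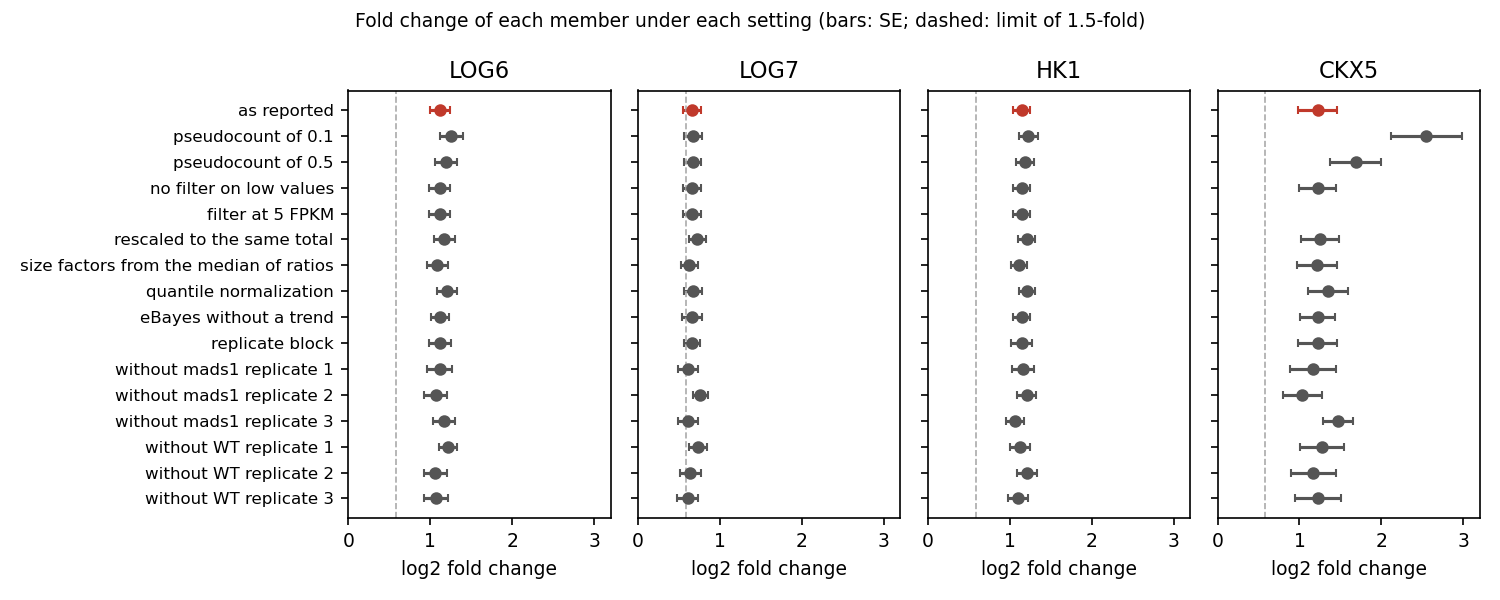
Log2 fold change of each member (points, with standard errors as bars) as reported and under each alternative setting, with the 1.5-fold limit dashed. Every point lies to the right of the limit; *CKX5* moves with the pseudocount, from 1.22 to 2.55, and has no point at a filter of 5 FPKM because it was not tested there.

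Expression of the neighbouring genes was not used to choose the 4 genes. The 5 listed identifiers before and the 5 after each gene gave 40 genes, of which 29 had enough FPKM to be tested. Identifiers that are not listed can lie between these, so places give identifier order and not distance in bases. None of the 29 was called higher in *mads1*, and 8 were called lower (limma, adjusted p below 0.05 and at least 1.5-fold). At an unadjusted p below 0.05 (limma), 3 were higher and 13 lower. All genes tested were not counted at that cut, so nothing is read from it. With the adjusted p alone (limma, below 0.05), 1 flanking gene was higher and 11 were lower. Of all 17996 genes tested, 3768 were higher and 4011 lower by that rule. Called lower were 27.6% of the flanking genes against 14.5% of all genes tested, and called higher 0 against 6.6%. Whether these shares differ was not tested, since neighbours are few and not independent. The median log2 fold change of the flanking genes was -0.18, against 0.05 over all genes tested. However, 2 of the 29 are themselves on the list of bound and changed genes and were thus selected for a change. Of the 27 others, 0 were called higher and 6 lower (22.2%), and their median log2 fold change was -0.17. At an unadjusted p below 0.05 (limma), 3 of them were higher and 11 lower, again without a count over all genes.

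Next to *LOG6*, the gene annotated as terpene synthase 21 (HORVU.MOREX.r3.4HG0408010), from a family of enzymes that make volatile and defensive terpenes, had 4.25, 3.86 and 5.23 FPKM in the WT replicates and was listed with 0, 0.12 and 0 FPKM in those of *mads1*. It is 1 of the 2 neighbours on that list, so its values are a description. HORVU.MOREX.r3.4HG0408040, 3 places after *LOG6*, fell from 5.94 ± 0.489 to 2.29 ± 0.257 FPKM (SD, n = 3 each; limma, adjusted p = 0.000321). The 2 listed genes just before *LOG7*, HORVU.MOREX.r3.4HG0335550 and HORVU.MOREX.r3.4HG0335570, had log2 fold changes of -0.77 and -0.68. The listed gene just before *HK1* (HORVU.MOREX.r3.6HG0616240) is annotated as glycosyl hydrolase 9B8, a family of cellulose-cleaving enzymes. It had 27.38, 13.64 and 14.48 FPKM in the WT replicates, against 0.42, 0.79 and 0.22 FPKM in those of *mads1*. This is a log2 fold change of -3.67 with a standard error of 0.26, again a description, as this gene is the other one on the list. At 3 places after *HK1*, HORVU.MOREX.r3.6HG0616460 had a log2 fold change of -2.28. None of the 4 flanking genes of *CKX5* that could be tested was called, and the other 6 were too low to test.

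**Figure D5:**
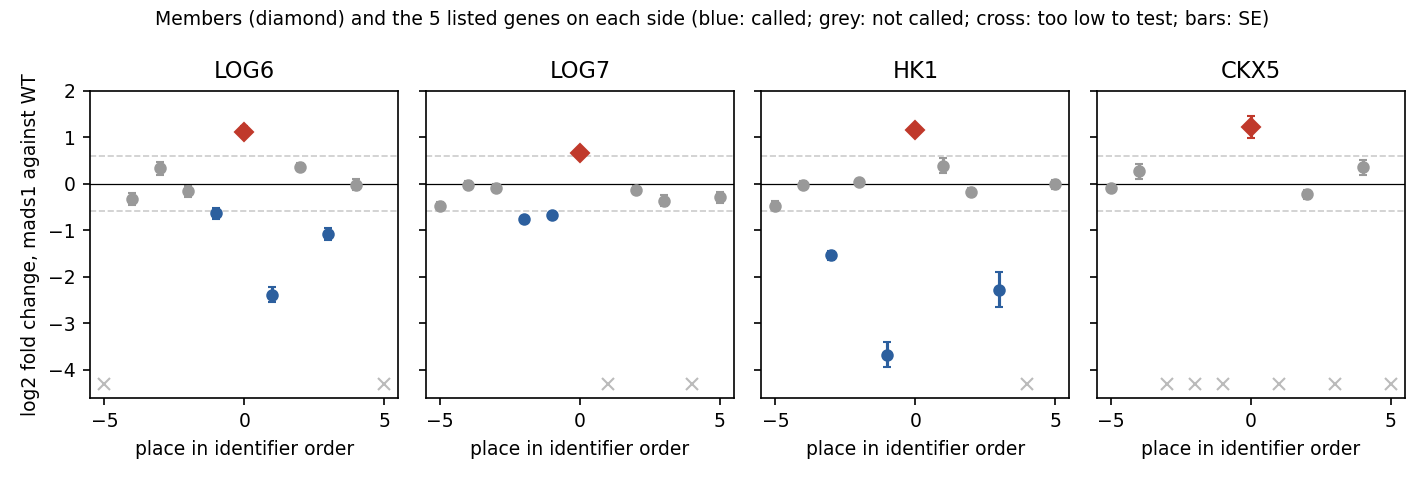
Log2 fold change with standard error of each member (diamond, place 0) and of the 5 listed genes on each side in identifier order, with called genes in blue, genes not called in grey and crosses at the bottom for genes too low to test; dashed lines mark the 1.5-fold limits. The members were selected for their change in these libraries, so nothing is read from their place above all of their tested neighbours. The called neighbours, 3 at *LOG6*, 2 at *LOG7* and 3 at *HK1*, all lie below 0. Of these, 2 are on the list of bound and changed genes.

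The genes whose pattern was most like that of each member were sought among the other 537 tested genes on the list of bound and changed genes, by the root mean square difference of log2(FPKM + 1), each gene centred on its own mean over the 6 libraries. Since these genes were also selected for their change, likeness is a description only. Nearest to *LOG6* was the gene annotated as WRKY DNA-binding protein 3 (HORVU.MOREX.r3.2HG0128680, difference 0.10 on the log2 scale), a transcription factor gene at 7.06 ± 1.71 FPKM in WT and 15.4 ± 1.53 FPKM in *mads1* (SD, n = 3 each). An AMP-dependent synthetase and ligase gene (HORVU.MOREX.r3.1HG0016790) and the gene annotated as multidrug resistance-associated protein 6 (HORVU.MOREX.r3.7HG0717840), a membrane transporter of the ABC type, followed at 0.12 each. The latter was also the nearest to *CKX5*, at 0.12, and the former came second, at 0.13. A gene for a subunit of the vacuolar H+-ATPase, a proton pump (HORVU.MOREX.r3.1HG0070740), came next for *CKX5*, at 0.25. The neighbours of *CKX5* depend on the value added to FPKM: with 0.1 in place of 1, none of these 3 was among its 3 nearest genes, and the smallest difference was 0.51.

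*LOG7* was nearest to a pentatricopeptide repeat gene (HORVU.MOREX.r3.6HG0542170, 0.10), from a family that binds organelle RNA, to the gene annotated as tubby like protein 6 (HORVU.MOREX.r3.6HG0607550, 0.11) and to that for RNA-binding protein 45A (HORVU.MOREX.r3.2HG0157680, 0.13). With 0.1 added, 1 of these 3 was still among the nearest 3 to *LOG7*, and for *LOG6* and *HK1* all 3 were. *HK1* was nearest to a leo1-like gene (HORVU.MOREX.r3.5HG0511520, 0.09), whose relatives act in transcript elongation in yeast, to the gene annotated as S-domain-2 5 (HORVU.MOREX.r3.7HG0655680, 0.09), named after a receptor-like kinase of *Arabidopsis*, and to HORVU.MOREX.r3.2HG0157790, whose function the annotation leaves unknown, at 0.12. Among the members themselves, *LOG6* and *HK1* differed least, by 0.19 on this measure, and *LOG7* and *CKX5* most, by 0.45. *LOG6* and *LOG7*, which the annotation places in the same enzyme family, differed by 0.28. These differences are for 1 added to FPKM.

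Among the annotations of the 605 listed genes, words for cytokinin synthesis, activation, conjugation, transport, perception, phosphate transfer and response matched 4 genes, and these were the 4 members. Other genes of the pathway, such as the isopentenyltransferases that make cytokinin and the response regulators at the end of the signal, are not analysed here, because no annotation could be joined to the other identifiers of the table. The study separately shows hormone-related genes changed in *mads1*, bound or not. Its legend there names further cytokinin families, such as response regulators, so the 4 members are not all the cytokinin genes it reports. The LOG and CKX genes belong to families with similar copies, and how RSEM divided reads between such copies was not tested.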

How the data were processed

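The authors deposited FPKM values per gene for 3 WT and 3 *mads1* libraries, with 2 decimals. Per the labels and the methods, reads were trimmed with Trimmomatic, mapped to the barley genome and quantified with RSEM 1.3.3; genome version and aligner are not given in the sources used here, and the identifiers are of Morex version 3. No counts are in the table, so the study's DESeq2 test was not repeated. Genes that reached 1 FPKM in 3 or more of the 6 libraries were tested with limma 3.58.1 (R 4.3.3; lmFit, eBayes with a trend) on log2(FPKM + 1), with p adjusted by Benjamini-Hochberg over all genes tested. Calling a gene took an adjusted p below 0.05 together with a change of 1.5-fold or more. The fit was also tested on simulated data. Genotype and replicate number come from the labels.

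Values between 0.15 and 0.5 FPKM gave depths of 0.946 to 1.05 times that of WT replicate 3, an approximate measure that favours ratios near 1. At most 2.18% of genes had the same value above 0 in any pair of libraries, and each library was counted once. Between genotypes, r across tested genes was 0.884 to 0.941, and within them 0.982 to 0.994.

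The members and lists were chosen with earlier results of these data known. Named were the members, the called flanking genes with the largest changes (up to 2 per member and direction), the 3 genes nearest in pattern to each member and 4 organ markers. Alternatives were other pseudocounts, filters and scalings, no trend in eBayes, a block for the replicate number, no limit on the fold, and leaving out each library. Gene sequences were not used here.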

Additional observations from a re-analysis of the deposited data

How the results depend on the processing

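*LOG6*, *LOG7* and *HK1* stayed higher in *mads1* and past the threshold under all 16 alternatives and *CKX5* under the 15 in which it was tested; with a filter at 5 FPKM it was not tested and 3 members were left. The genes were selected on this contrast, and *CKX5* entered the test through *mads1* alone, so this is no sign of stability. With each replicate left out, the log2 fold changes were 1.06 to 1.22 (*LOG6*), 0.60 to 0.76 (*LOG7*), 1.07 to 1.21 (*HK1*) and 1.03 to 1.47 (*CKX5*), and the members past the threshold numbered 4 in each fit. Genes called then numbered 3402 to 4158, 1022 to 1460 higher and 2380 to 2698 lower, against 3794, 1187 and 2607. With the adjusted p alone 7779 genes were called, 3768 higher and 4011 lower, and 1 flanking gene was higher; the filter at 5 FPKM left 769 higher. Flanking genes called lower numbered 7 to 11 under the 16 alternatives. With the filter at 5 FPKM, HORVU.MOREX.r3.4HG0408010 was not tested. Of the 8 called lower, the only one that was tested and missed the threshold, HORVU.MOREX.r3.4HG0407990 next to *LOG6* and singled out here after its values were seen, did so when rescaled to the same total (-0.58), by quantile normalization (-0.58) and without WT replicate 1 (-0.55).

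The replicate block gave 3781 called genes, 1171 higher and 2610 lower, and the same members called. Deviations of same-numbered libraries correlated at -0.07, -0.28 and 0.20, and 1 of 6 libraries correlated best with its own number. The labels give only a number. With 3 libraries per genotype, whether same-numbered samples share more than that cannot be told. The number of reads behind the *CKX5* values is unknown. Chosen after seeing the data were the counts of flanking genes outside the list of bound and changed genes (0 higher, 6 lower), and the places and nearest genes with less than 1 added to FPKM.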
